A study of Mus musculus with 12 samples.

Results

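The genes described here encode proteins that choose which splice sites are used: SR proteins, heterogeneous nuclear ribonucleoproteins (hnRNPs), the PTB, MBNL, CELF, RBFOX, ESRP and KHDRBS splicing factors, the CLK kinases and RBM39. They were taken by gene symbol from a list of 51, and all 51 were found among the 42450 gene identifiers of the count table. All 51 also passed the filter on low counts, which left 19410 genes for testing. By role they are 11 SR proteins, 2 SR-like Tra2 proteins, 20 hnRNPs, 3 PTB proteins, 8 tissue-regulated factors, 2 STAR proteins, 4 CLK kinases and *Rbm39*.

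The RNA of all 4 groups came from wild-type (WT) E14tg2a.4 cells, a male mouse embryonic stem cell (mESC) line that self-renews in the presence of the cytokine LIF. Cells kept in serum-free ESGRO medium with LIF were transfected with siRNA at 50 nM. The siRNA targeted either *Srrm2* (the Srrm2-KD groups) or Gl2, a firefly luciferase sequence that mouse cells lack (the Gl2-KD groups). Cells were harvested at 24 h, or were transfected again with the same siRNA and harvested at 72 h. Each of the 4 groups has 3 libraries, 1 from each of 3 experiments, which makes 12 polyA+ RNA-seq libraries. All libraries are from 1 cell line. Stocks frozen at different passages served as biological replicates in the study. The main fit had terms for group and experiment, so its p-values measure the spread between libraries that is left after both.

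SR proteins bind exonic enhancers through RNA recognition motifs and recruit the spliceosome through domains rich in arginine and serine. Many hnRNPs act against them and favour skipping of the exons they bind. CLK kinases phosphorylate SR proteins and so release them from nuclear speckles, the compartments in which SRRM2 is a scaffold. Many genes of both families also limit their own expression: their proteins promote inclusion of a "poison" exon, or skipping of a coding exon, and the product carries an early stop codon and is degraded by nonsense-mediated decay (NMD).

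*Srrm2* itself checked the labels. It lay between 442 and 962 CPM (the usual read count scaled to library size, here with sizes corrected by the TMM method) in the Gl2-KD libraries and between 154 and 517 CPM in the Srrm2-KD libraries, and every Srrm2-KD library lay below its Gl2-KD partner. Its log2 fold change was -1.22 (SE 0.14) at 24 h and -1.16 (SE 0.14) at 72 h, with adjusted p = 0.0663 and 0.0991 in edgeR. DESeq2 gave adjusted p = 3.37e-11 and 1.76e-09 for the same comparisons, and limma-voom gave 0.0277 and 0.0218. Library totals ranged from 73933196 to 153343831 estimated counts, of which the 51 genes took 1.32% to 1.80%. All 10 stem cell markers, among them *Pou5f1* and *Nanog*, were expressed, with summed levels of 5198 to 8039 CPM. The 6 mesoderm and the 6 endoderm markers summed to less than 10 CPM in every library. Markers of the formative or primed epiblast, 6 genes with *Otx2* and *Dnmt3b* among them, summed to 402 to 964 CPM. For this list the 72 h sums of the siRNAs did not overlap, with 402 to 551 CPM for Gl2-KD and 623 to 774 CPM for Srrm2-KD. The 24 h sums overlapped, with 536 to 688 CPM for Gl2-KD and 571 to 964 CPM for Srrm2-KD. A difference between the siRNAs in these sums was not tested.

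2 features of the libraries bear on what follows. The 4 libraries of experiment 1 stood apart from the other 8 for many genes, so the experiment was a term of the fit. The Gl2-KD 72 h library of experiment 3 gave the lowest value of the 12 for 24 of the 51 genes (47.1%), against 14.7% of all genes tested. It held the smallest share of counts from the 51 genes (1.32%), followed by its Srrm2-KD partner (1.41%), while the other 10 libraries held 1.62% to 1.80%. Each fit was repeated with 1 library or 1 whole experiment left out in turn, and the ranges of log2 values quoted below as leave-one-out ranges come from these repeats.

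Levels spanned several orders of magnitude. Per kilobase of median transcript length, *Hnrnpa1*, which binds UAG motifs and represses exons, was the most abundant at 1107 ± 137 CPM per kb (mean ± SD, n = 12 libraries). These SDs take in the differences between groups and between experiments, and genes were not tested against each other. *Hnrnpa3* and *Hnrnpf* followed with 543 ± 71.5 and 538 ± 47.1 CPM per kb and did not differ beyond their SDs. The most abundant SR protein genes were *Srsf5* (382 ± 29.4 CPM per kb), *Srsf2* (319 ± 53.5 CPM per kb) and *Srsf3* (302 ± 58.7 CPM per kb), and the last 2 lay within their SDs of each other.

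At the other end stood genes known for roles in differentiated tissues. *Mbnl1*, *Mbnl2*, *Mbnl3* and *Celf2*, regulators of muscle and brain splicing, had 1.65 ± 0.957, 1.396 ± 0.820, 2.13 ± 0.989 and 2.18 ± 0.763 CPM per kb and were not separated by their SDs. *Srsf12* was the lowest, at 0.181 ± 0.0349 CPM per kb, and 0.374 to 0.685 CPM before division by length. The epithelial regulators *Esrp1* and *Esrp2* had 23.8 ± 3.97 and 3.44 ± 0.810 CPM per kb. Among the PTB genes, *Ptbp1* (196 ± 39.5 CPM per kb), the form of most non-neural cells, exceeded its neural paralog *Ptbp2* (23.0 ± 5.89 CPM per kb) and *Ptbp3* (32.6 ± 8.99 CPM per kb). In all, 44 of the 51 genes were above 10 CPM in every library, and 1 had a mean below 1 CPM.

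The counts are sums over all transcripts of a gene, so productive and NMD-targeted isoforms are pooled. In the GENCODE M21 annotation (GRCm38), 32 of the 51 genes, 9 of the 11 SR protein genes among them, have at least 1 transcript annotated as an NMD target, 65 such transcripts in all. The ends of 8 of these reading frames are shown because the gene counts cannot separate transcripts with these early stops from productive ones. Each is the last 30 coding bases, 5′ to 3′, with the stop codon in capitals.
Srsf3-201: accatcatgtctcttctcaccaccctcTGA
Srsf6-201: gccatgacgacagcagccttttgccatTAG
Srsf7-203: aggtttcttcgtttgagtcagtcgcctTGA
Tra2a-202: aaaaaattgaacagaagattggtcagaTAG
Tra2b-206: aatgagtatttgaagctcaggaataagTGA
Ptbp1-201: gaggcgtctacggtgatgtgcagcgggTGA
Ptbp2-208: gaggtgtttatggagatgtgcagcgcgTGA
Clk1-210: tcacacgggatgaaattgttgatacttTAG

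In these transcripts the stop lies 361 to 1015 nucleotides upstream of the last exon junction. The *Srsf7* stop is at chr17:80205054-80205056 (minus strand) in a gene of 8 annotated transcripts, of which 4 are protein coding, 1 is an NMD target and 3 retain an intron. The *Ptbp1* and *Ptbp2* stops, at chr10:79862473-79862475 (plus strand) and chr3:119724160-119724162 (minus strand), end windows that are identical at 25 of 30 bases, and lie 361 nucleotides from the last junction in both genes. Use of these stops was not measured here, since the table has 1 value per gene. For 12 of the 51 genes more than 10% of 31-base stretches occur in other genes, and 18 of the 51, *Srsf2*, *Ptbp1* and *Clk3* among them, have exons that overlap a gene on the opposite strand. The library kit keeps strand, but the strand setting of the counting is not stated in the sources used, so these counts are less certain. RefSeq promoters (GRCm38.p6, 250 bases before to 50 after the start site) were matched for 42 of the 51 genes and searched on both strands for 5 motifs. A GC box (GGGCGG) was present in 35 of the 42 (83.3%, against 38.2% of genes with a promoter), a CCAAT box (CCAAT) in 23 (54.8%, against 41.1%), an E-box (CACGTG) in 8 (19.0%, against 8.09%), an ETS core (CCGGAAG) in 7 (16.7%, against 9.93%) and a TATA box (TATAAA) in 6 (14.3%, against 15.7%). The shares set beside them cover all 27025 genes with a promoter, whether or not they passed the filter on low counts, as all 51 did. The shares among genes that passed it were not counted. These matches describe the letters in the window and are not evidence of binding.

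The comparison of the siRNAs asks whether loss of *Srrm2*, a speckle component, was accompanied by changed transcript levels of the splicing regulators. At 24 h none of the 51 was called at an adjusted p below 0.05 in edgeR, and 0% of all genes tested were. DESeq2 and limma-voom also called 0 of the 51 (0.124% and 0.0103% of genes). At an unadjusted p below 0.05 edgeR called 0 of the 51, against 2.62% of genes (1.47% lower and 1.15% higher). Negative fitted values were found for 23 of the 51 (45.1%), against 48.7% of genes. This count was 18 (35.3%, against 47.9% of genes) when the Gl2-KD 24 h library of experiment 3 was left out and 36 (70.6%, against 50.98% of genes) when its Srrm2-KD partner was, with a median of -0.05 in the latter case. The fitted log2 fold changes of the 51 had a median of 0.01 and ran from -0.23 for *Srsf7* to 0.30 for *Ptbp2*; the median of all genes was 0.01. The median size of change, disregarding its sign, was 0.06 for the 51 and 0.12 for all genes.

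**Figure D1:**
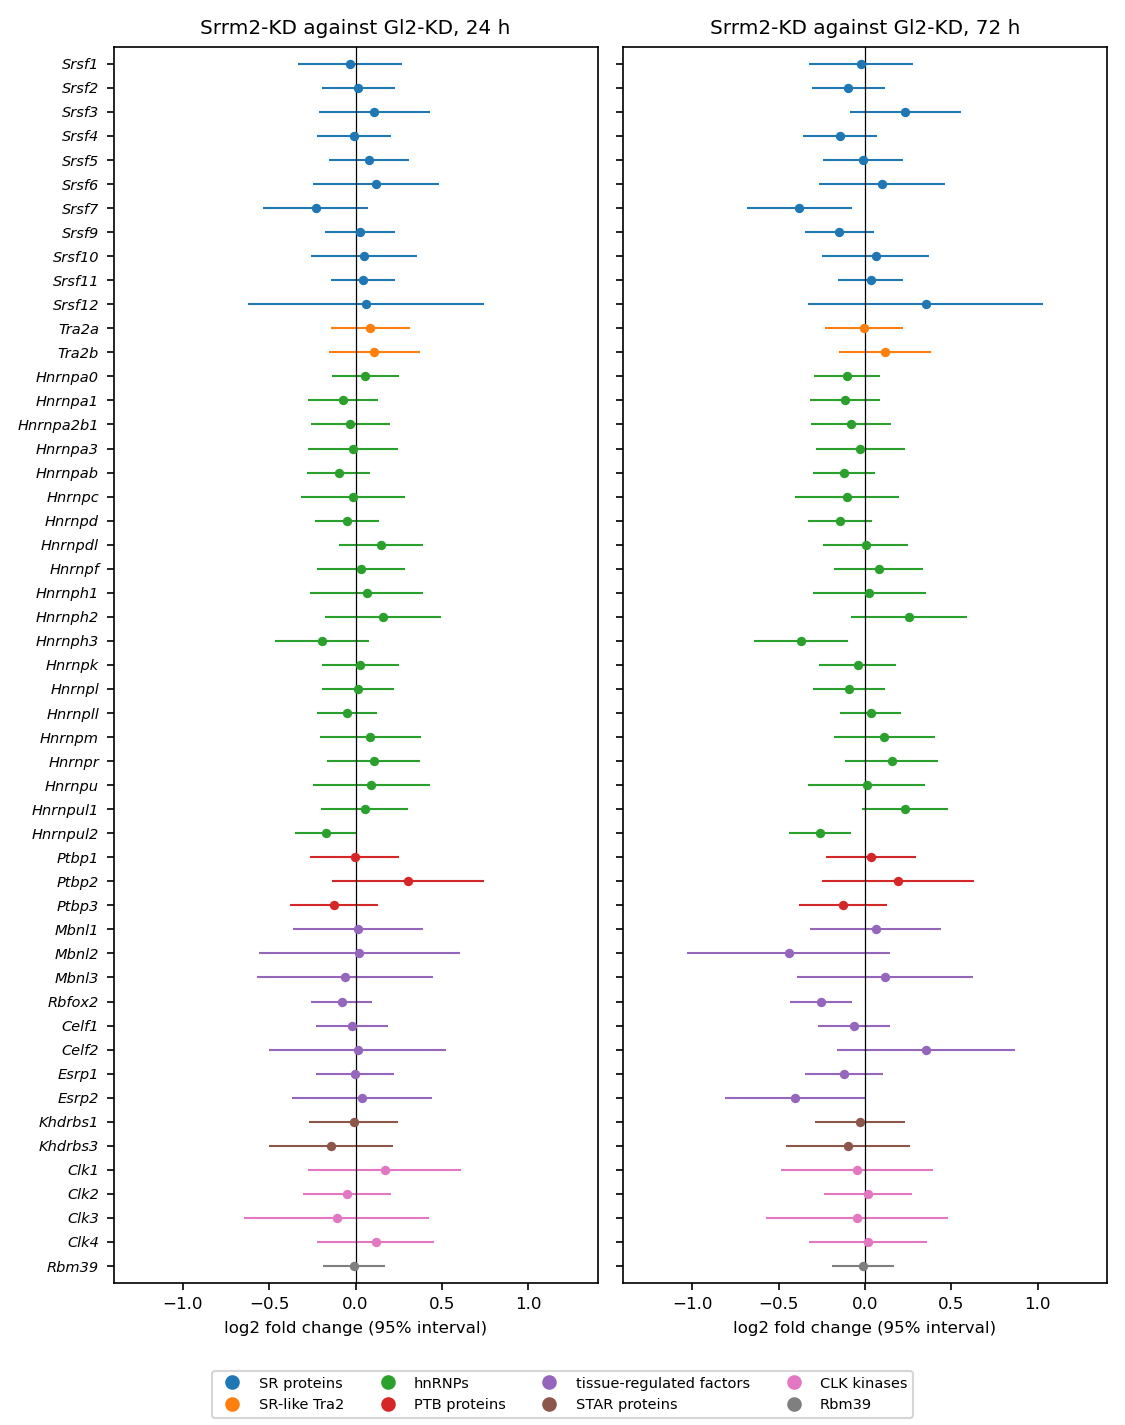
Log2 fold change of Srrm2-KD against Gl2-KD for each of the 51 genes, with the 24 h comparison in the left panel and the 72 h comparison in the right panel; points are edgeR estimates, lines are 95% intervals and colours mark the gene groups. At 24 h no interval leaves out 0; at 72 h those of *Hnrnpul2*, *Rbfox2*, *Hnrnph3* and *Srsf7* lie below it.

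Since edgeR did not call *Srrm2* itself at either time, the lack of calls does not show that the 51 genes were unchanged. The 95% intervals, each for 1 gene taken alone, give the sizes of change that remain possible. All 51 of the 95% intervals at 24 h lay within 1 log2 unit of 0, and 42 lay within 0.5. At 72 h 49 lay within 1 unit and 40 within 0.5. The intervals that reached past 1 unit at 72 h were those of the weakly expressed *Srsf12* (-0.33 to 1.03) and *Mbnl2* (-1.03 to 0.15).

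At 72 h edgeR again called none of the 51, and 0% of all genes. DESeq2 and limma-voom called 0 of the 51 as well (2.76% and 0.0206% of genes). Values with an unadjusted p below 0.05 were found for 4 of the 51 (7.84%), against 12.9% of all genes, and all 4 were lower in Srrm2-KD (7.86% of genes were lower and 5.01% higher at this p). In the order of their p they were *Hnrnpul2*, *Rbfox2*, *Hnrnph3* and *Srsf7*. The fitted values of 29 of the 51 were negative (56.9%), against 52.1% of genes, with a median of -0.02 for the 51 and -0.02 for all genes. Values in each library are given in the order of experiments 1, 2 and 3.

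*Hnrnpul2* encodes an hnRNP U-like protein that binds RNA and takes part in the response to DNA breaks. *Hnrnpul2* measured 356, 307 and 274 CPM in Gl2-KD and 338, 265 and 235 CPM in Srrm2-KD at 24 h, and 291, 242 and 223 CPM in Gl2-KD and 265, 188 and 182 CPM in Srrm2-KD at 72 h. Each Srrm2-KD library lay below its Gl2-KD partner, while the groups overlapped and experiment 1 had the highest value of every group. Its exons overlap *AC129217.1* on the same strand, and 4.86% of its 31-base stretches occur in other genes. The log2 fold change was -0.17 (SE 0.08) at 24 h and -0.26 (SE 0.08) at 72 h, with edgeR adjusted p = 1 and 0.242. The leave-one-out ranges were -0.22 to -0.14 and -0.34 to -0.22.

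*Srsf7* encodes a shuttling SR protein with a zinc knuckle that also acts in 3′ end choice and RNA export. *Srsf7* measured 186, 162 and 177 CPM in Gl2-KD and 150.5, 152.7 and 144 CPM in Srrm2-KD at 24 h, and 139.8, 149.7 and 171 CPM in Gl2-KD and 88.9, 126 and 142 CPM in Srrm2-KD at 72 h. The 24 h groups did not overlap, as for 2 of the 51 genes (3.44% of genes), and at 72 h Srrm2-KD was lower in each experiment but the highest Srrm2-KD library exceeded the lowest Gl2-KD library. Its log2 fold change was -0.23 (SE 0.14) at 24 h and -0.38 (SE 0.14) at 72 h, with edgeR adjusted p = 1 and 0.290. The leave-one-out range was -0.31 to -0.10 at 24 h, nearest to 0 without the Gl2-KD library of experiment 1, and -0.50 to -0.23 at 72 h, nearest to 0 without the Srrm2-KD library of experiment 1.

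*Hnrnph3* belongs to the hnRNP H and F family, which binds runs of G. *Hnrnph3* measured 54.5, 56.6 and 72.5 CPM in Gl2-KD and 54.8, 48.4 and 55.0 CPM in Srrm2-KD at 24 h, and 63.7, 80.4 and 103 CPM in Gl2-KD and 51.2, 62.1 and 77.5 CPM in Srrm2-KD at 72 h. At 72 h Srrm2-KD was lower in each experiment, and at 24 h in experiments 2 and 3. The log2 fold change was -0.20 (SE 0.12) at 24 h and -0.37 (SE 0.12) at 72 h, with edgeR adjusted p = 0.265 at 72 h. The leave-one-out range was -0.36 to -0.09 at 24 h, nearest to 0 without the Srrm2-KD library of experiment 3, and -0.49 to -0.31 at 72 h.

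*Rbfox2* encodes the RBFOX factor expressed in mESCs, which binds UGCAUG and acts on exons according to its position. *Rbfox2* measured 169, 123 and 95.6 CPM in Gl2-KD and 164, 111 and 92.3 CPM in Srrm2-KD at 24 h, and 162, 109 and 84.5 CPM in Gl2-KD and 142, 86.5 and 71.9 CPM in Srrm2-KD at 72 h. Each Srrm2-KD library was lower than its Gl2-KD partner, by a log2 fold change of -0.08 (SE 0.08) at 24 h and -0.25 (SE 0.08) at 72 h (edgeR adjusted p = 0.245). The leave-one-out range at 72 h was -0.33 to -0.22. The 3 experiments differed from each other by more than the siRNAs did.

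**Figure D2:**
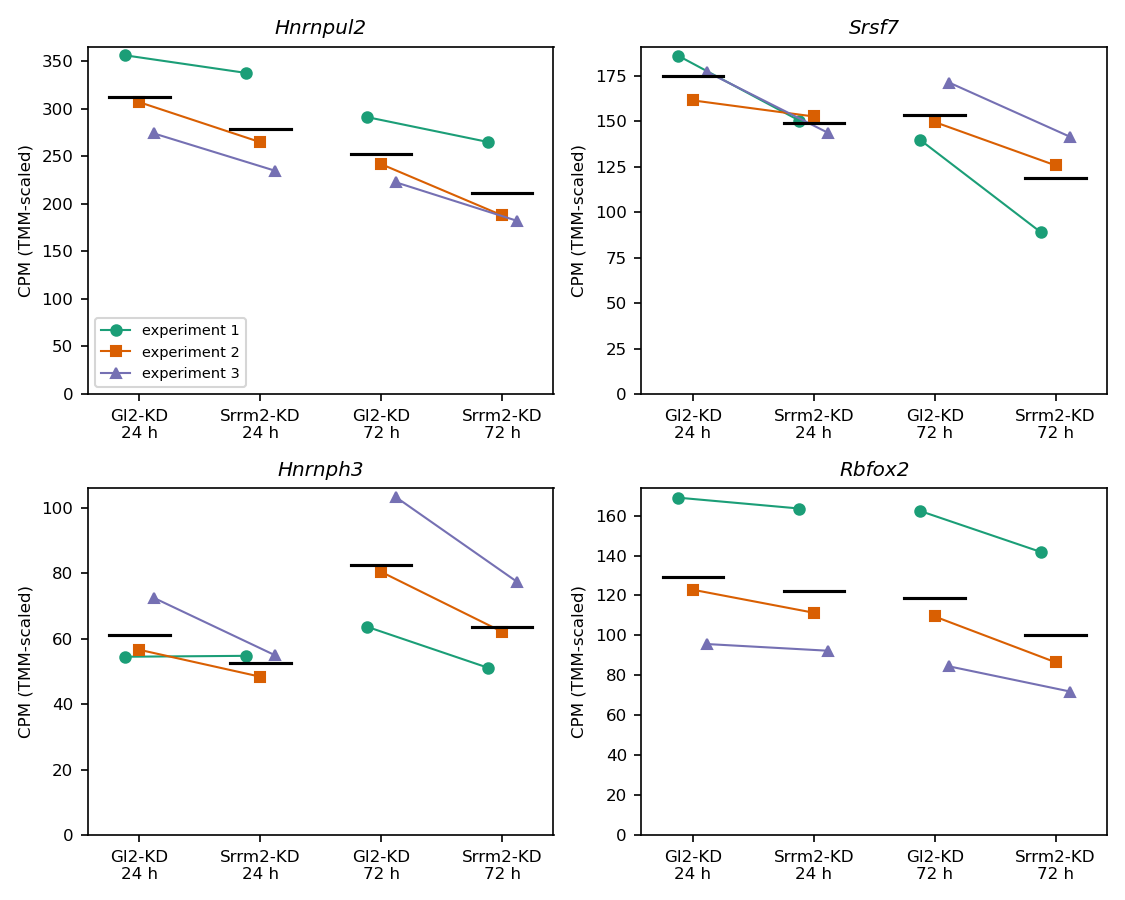
CPM in each of the 12 libraries for the 4 genes with the smallest p at 72 h; lines join the 2 siRNAs of an experiment at the same time and black bars are group means. At 72 h every line runs downward from Gl2-KD to Srrm2-KD, and for *Hnrnpul2* and *Rbfox2* the experiments stay in the same order in all 4 groups.

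Some other members ranked high at 1 time. *Ptbp2*, the neural PTB paralog, was higher in Srrm2-KD in every pair of libraries. *Ptbp2* measured 48.4, 45.0 and 45.6 CPM in Gl2-KD and 50.97, 59.1 and 60.1 CPM in Srrm2-KD at 24 h, and 76.2, 69.4 and 39.4 CPM in Gl2-KD and 81.1, 81.8 and 47.3 CPM in Srrm2-KD at 72 h. At 24 h the groups did not overlap, and the log2 fold change was 0.30 (SE 0.20) at 24 h and 0.19 (SE 0.20) at 72 h. The leave-one-out range at 24 h was 0.04 to 0.48, nearest to 0 without the Srrm2-KD library of experiment 3. At 72 h the value was -0.01 (SE 0.20) without the Gl2-KD library of experiment 3.

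*Hnrnpdl*, a paralog of *Hnrnpd* (AUF1) with 2 transcripts annotated as NMD targets, was among the 6 smallest p-values at 24 h. *Hnrnpdl* measured 389, 478 and 425 CPM in Gl2-KD and 406, 532 and 493 CPM in Srrm2-KD at 24 h, and 385, 455 and 305 CPM in Gl2-KD and 367, 434 and 344 CPM in Srrm2-KD at 72 h. It was higher in Srrm2-KD in all 3 experiments at 24 h by a log2 fold change of 0.15 (SE 0.11), and at 72 h in experiment 3 alone. At 24 h its leave-one-out range was 0.03 to 0.23, nearest to 0 without the Srrm2-KD library of experiment 3.

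*Hnrnpab*, a CArG-box binding hnRNP, was lower in Srrm2-KD in every pair of libraries. *Hnrnpab* measured 682, 969 and 835 CPM in Gl2-KD and 639, 887 and 793 CPM in Srrm2-KD at 24 h, and 672, 863 and 682 CPM in Gl2-KD and 593, 779 and 666 CPM in Srrm2-KD at 72 h. The differences were small, with log2 fold changes of -0.10 (SE 0.08) and -0.12 (SE 0.08), and the groups overlapped. The leave-one-out ranges were -0.15 to -0.06, nearest to 0 with the 24 h Srrm2-KD library of experiment 1 left out, and -0.19 to -0.08, nearest to 0 without the Gl2-KD 72 h library of experiment 1.

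*Esrp2*, which with *Esrp1* sets epithelial splicing, had the next smallest p at 72 h after the 4 genes above. *Esrp2* measured 8.95, 16.0 and 13.9 CPM in Gl2-KD and 9.94, 15.5 and 14.2 CPM in Srrm2-KD at 24 h, and 11.3, 16.1 and 11.3 CPM in Gl2-KD and 8.97, 8.47 and 11.4 CPM in Srrm2-KD at 72 h. Its log2 fold change of -0.40 (SE 0.19) at 72 h came from experiments 1 and 2, and the pair of experiment 3 differed by little. Its leave-one-out range was -0.60 to -0.18, nearest to 0 when all of experiment 2 was left out.

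*Hnrnpul1*, the paralog of *Hnrnpul2*, pointed the other way at 72 h. *Hnrnpul1* measured 139, 50.9 and 68.5 CPM in Gl2-KD and 143, 50.0 and 75.1 CPM in Srrm2-KD at 24 h, and 139, 56.3 and 58.6 CPM in Gl2-KD and 151, 55.6 and 88.9 CPM in Srrm2-KD at 72 h. Its log2 fold change was 0.23 (SE 0.11), with a higher Srrm2-KD value in experiments 1 and 3 and a slightly lower value in experiment 2. Without the Gl2-KD library of experiment 3 it was 0.09 (SE 0.10), and the leave-one-out range was 0.05 to 0.35, nearest to 0 without all of experiment 3.

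*Hnrnph2*, an X-linked paralog of *Hnrnph1*, was among the 6 smallest p-values of the mean of both times. *Hnrnph2* measured 130.2, 112 and 118 CPM in Gl2-KD and 128, 127 and 145 CPM in Srrm2-KD at 24 h, and 144, 124 and 87.9 CPM in Gl2-KD and 151, 158 and 114 CPM in Srrm2-KD at 72 h. It was higher in Srrm2-KD in all 3 experiments at 72 h, with a log2 fold change of 0.26 (SE 0.15), or 0.09 (SE 0.15) without the Gl2-KD library of experiment 3. For the mean of both times the log2 fold change was 0.21 (SE 0.11), with a leave-one-out range of 0.10 to 0.30, nearest to 0 with the 24 h Srrm2-KD library of experiment 3 left out.

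Groups of libraries that did not overlap at 72 h were found for 2 of the 51 genes, against 6.66% of all genes. These were *Srsf4*, lower in Srrm2-KD (99.1, 100.1 and 102 CPM in Gl2-KD and 96.2, 84.9 and 90.6 CPM in Srrm2-KD), and *Srsf12*, higher (0.514, 0.437 and 0.518 CPM and 0.685, 0.541 and 0.641 CPM). Neither passed an unadjusted p below 0.05 in edgeR. Their leave-one-out ranges were -0.25 to -0.09 and 0.17 to 0.52, nearest to 0 when the 72 h library of experiment 2 from Srrm2-KD and from Gl2-KD, respectively, was left out. The same direction in all 3 experiments was seen for 15 of the 51 at 24 h (32.7% of genes) and for 18 at 72 h (41.9% of genes).

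When both times were averaged, edgeR called none of the 51 and 0.067% of genes. Unadjusted p-values below 0.05 were again those of *Hnrnpul2*, *Hnrnph3*, *Srsf7* and *Rbfox2* (7.84% of the 51, 13.6% of genes). All 4 were lower, as were 7.85% of genes at this p, while 5.72% were higher. They had log2 fold changes of -0.22 (SE 0.06), -0.28 (SE 0.09), -0.31 (SE 0.10) and -0.17 (SE 0.06). Their edgeR adjusted p-values were 0.151, 0.197, 0.207 and 0.238. DESeq2 called *Hnrnpul2* (adjusted p = 0.0281; 3.78% of genes called), and limma-voom called 0 of the 51 (0.474% of genes). When each pair of libraries formed its own block, edgeR called *Hnrnph3* and *Srsf7* at 72 h (adjusted p = 0.0458 and 0.0486; 3.73% of genes called). In the mean of both times this fit called these 2, *Hnrnpul2* and *Ptbp2* (7.84% of the 51; 5.79% of genes).

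None of the gene groups stood far from 0 at 72 h. Of the 11 SR protein genes, 5 had positive and 6 negative log2 fold changes, around a median of -0.01. Of the 20 hnRNP genes, 9 were positive and 11 negative, around a median of -0.03. The 8 tissue-regulated factors had a median of -0.09, and the 4 CLK kinases, between -0.05 and 0.02, lay close to 0. Summed over the 11 SR protein genes, the levels were 3847, 4089 and 3801 CPM in Gl2-KD and 3755, 4219 and 4100.3 CPM in Srrm2-KD at 24 h, and 4093, 3938 and 2811 CPM in Gl2-KD and 3819, 3897 and 3258 CPM in Srrm2-KD at 72 h. The sums of experiment 3 at 72 h were the lowest under both siRNAs.

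Without the Gl2-KD 72 h library of experiment 3, 43 of the 51 genes were lower in Srrm2-KD at 72 h in place of 29 (84.3%, against 53.3% of genes), and their median moved from -0.02 to -0.11. That library held the lowest value for 24 of the 51 genes, so leaving it out raises their Gl2-KD level. Without this library the 4 genes had log2 fold changes of -0.25 (*Hnrnpul2*), -0.29 (*Rbfox2*), -0.31 (*Hnrnph3*) and -0.35 (*Srsf7*), and edgeR called none of the 51. With all 12 libraries an unadjusted p below 0.05 in edgeR was found for 4 of the 51 and for 12.9% of genes. Without this library such a p was found for 7 of the 51. The share of all genes was not counted for this fit, so whether these 7 genes exceed that share is not known. *Srsf7* was not among them (edgeR unadjusted p = 0.0518), while *Esrp2*, *Hnrnpd*, *Srsf2* and *Srsf9* were, with log2 fold changes of -0.57, -0.22, -0.21 and -0.24. With all of experiment 1 left out in its place, 21 of the 51 had negative values (41.2%, against 51.9% of genes), with a median of 0.03. With only the Srrm2-KD 72 h library of experiment 3 left out, 24 had negative values (47.1%, against 51.5% of genes), with a median of 0.01.

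Whether the siRNA effect differed between the times was tested as the difference of the 2 log2 fold changes. EdgeR called none of the 51 and 0% of genes, and an unadjusted p below 0.05 was found for 0 of the 51 and 1.64% of genes (0.979% lower and 0.665% higher). Negative differences were fitted for 33 of the 51 (64.7%), against 54.1% of genes. Without the Gl2-KD 72 h library of experiment 1 this count was 22 (43.1%, against 53.5% of genes), and without that of experiment 3 it was 44 (86.3%, against 55.9% of genes). The smallest p-values were those of *Esrp2* (-0.44 (SE 0.26)), *Rbfox2* (-0.17 (SE 0.11)), *Srsf9* (-0.17 (SE 0.13)), *Hnrnpa0* (-0.16 (SE 0.12)), *Mbnl2* (-0.46 (SE 0.38)) and *Hnrnpul1* (0.18 (SE 0.16)), on the log2 scale. The leave-one-out ranges were -0.64 to -0.23 for *Esrp2*, -0.25 to -0.14 for *Rbfox2*, -0.26 to -0.12 for *Srsf9*, -0.24 to -0.10 for *Hnrnpa0*, -0.72 to -0.10 for *Mbnl2* and 0.04 to 0.28 for *Hnrnpul1*. The values nearest to 0 came without the 72 h Srrm2-KD library of experiment 2 (*Esrp2*), the Gl2-KD 24 h library of experiment 1 (*Rbfox2*), the Gl2-KD 72 h library of experiment 1 (*Srsf9*), all of experiment 1 (*Hnrnpa0*), all of experiment 2 (*Mbnl2*) and the Gl2-KD 72 h library of experiment 3 (*Hnrnpul1*).

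*Srsf9*, a small SR protein gene, is one of these. *Srsf9* measured 54.8, 101 and 96.2 CPM in Gl2-KD and 55.8, 101 and 100.5 CPM in Srrm2-KD at 24 h, and 56.7, 94.0 and 79.5 CPM in Gl2-KD and 49.1, 79.7 and 80.2 CPM in Srrm2-KD at 72 h. At 72 h its Srrm2-KD values were lower in experiments 1 and 2. *Hnrnpa0*, an intronless gene whose protein binds AU-rich 3′ ends, is another. *Hnrnpa0* measured 226, 274 and 246 CPM in Gl2-KD and 253, 271 and 248 CPM in Srrm2-KD at 24 h, and 197, 264 and 208 CPM in Gl2-KD and 181, 229.7 and 209 CPM in Srrm2-KD at 72 h. In Srrm2-KD its 72 h libraries all lay below its 24 h libraries. *Mbnl2* was near the lower end of the range of expression. *Mbnl2* measured 8.46, 1.72 and 3.40 CPM in Gl2-KD and 8.27, 2.13 and 2.82 CPM in Srrm2-KD at 24 h, and 7.35, 2.48 and 5.84 CPM in Gl2-KD and 7.69, 1.23 and 4.36 CPM in Srrm2-KD at 72 h. The experiments of *Mbnl2* lay further apart than its siRNA groups.

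The 72 h and 24 h libraries differ both in time in culture and in the repeated transfection, which cannot be told apart. In Gl2-KD edgeR called none of the 51 and 1.45% of genes; in Srrm2-KD it called none and 0.551% of genes. Unadjusted p-values below 0.05 were found for 10 of the 51 in Gl2-KD (16.8% of genes), 5 higher (9.59% of genes) and 5 lower (7.21% of genes) at 72 h, and for 12 in Srrm2-KD (16.3% of genes), of which 11 were lower (8.54% of genes) and 1 higher (7.72% of genes). DESeq2 called 3 in Gl2-KD (*Hnrnpd*, *Hnrnph3*, *Hnrnpul2*; 6.69% of genes) and 7 in Srrm2-KD (*Hnrnpd*, *Hnrnpa0*, *Clk3*, *Rbfox2*, *Srsf2*, *Esrp1*, *Hnrnpul2*; 5.43% of genes). Limma-voom called 0 of the 51 in Gl2-KD (2.48% of genes) and *Hnrnpul2* in Srrm2-KD (1.33% of genes).

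*Hnrnpul2* had the smallest p under both siRNAs. Its log2 change from 24 h to 72 h was -0.31 (SE 0.08) in Gl2-KD and -0.40 (SE 0.08) in Srrm2-KD, with edgeR adjusted p = 0.0869 and 0.0613, and it was lower at 72 h in 3 of 3 experiments under each siRNA. *Hnrnpd*, the AUF1 gene, whose protein binds AU-rich elements and promotes mRNA decay, was also lower at 72 h throughout. *Hnrnpd* measured 494, 517 and 460.0 CPM in Gl2-KD and 477, 500.0 and 443 CPM in Srrm2-KD at 24 h, and 443, 434 and 340.2 CPM in Gl2-KD and 394, 369 and 336 CPM in Srrm2-KD at 72 h. The 72 h libraries lay below all 24 h libraries of the same siRNA, and the log2 change was -0.28 (SE 0.08) in Gl2-KD and -0.37 (SE 0.08) in Srrm2-KD (edgeR adjusted p = 0.124 and 0.0843).

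*Srsf3*, the smallest SR protein and a factor that cells depend on for growth, was lower at 72 h. *Srsf3* measured 766, 899.9 and 894 CPM in Gl2-KD and 736, 1009 and 1024 CPM in Srrm2-KD at 24 h, and 685, 742 and 489 CPM in Gl2-KD and 681, 874 and 702 CPM in Srrm2-KD at 72 h. The Gl2-KD libraries did not overlap between the times, and its log2 change was -0.42 (SE 0.15) in Gl2-KD and -0.30 (SE 0.15) in Srrm2-KD. Without the Gl2-KD 72 h library of experiment 3 the log2 change in Gl2-KD was -0.23 (SE 0.12), and leaving out its 24 h Srrm2-KD library gave -0.15 in Srrm2-KD. *Srsf2*, which binds both C-rich and G-rich enhancers, had lower values at 72 h in each experiment. *Srsf2* measured 546, 654 and 486 CPM in Gl2-KD and 564, 618 and 515 CPM in Srrm2-KD at 24 h, and 522, 568 and 357 CPM in Gl2-KD and 458, 493 and 388 CPM in Srrm2-KD at 72 h. The log2 change was -0.23 (SE 0.10) in Gl2-KD and -0.35 (SE 0.10) in Srrm2-KD, and the Srrm2-KD libraries did not overlap between the times. Without the Gl2-KD 72 h library of experiment 3 the log2 change in Gl2-KD was -0.13.

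*Esrp1* was lower at 72 h in all 3 experiments under each siRNA. *Esrp1* measured 104, 88.0 and 104 CPM in Gl2-KD and 98.9, 88.7 and 108 CPM in Srrm2-KD at 24 h, and 79.1, 74.2 and 90.3 CPM in Gl2-KD and 65.8, 64.8 and 95.1 CPM in Srrm2-KD at 72 h. Its log2 change was -0.28 (SE 0.10) in Gl2-KD and -0.40 (SE 0.10) in Srrm2-KD. The log2 change of *Rbfox2* was -0.14 (SE 0.08) in Gl2-KD and -0.31 (SE 0.08) in Srrm2-KD, and that of *Hnrnpa0* was -0.16 (SE 0.09) and -0.32 (SE 0.09). *Hnrnph3* differed in sign from these, with log2 changes of 0.42 (SE 0.12) in Gl2-KD and 0.24 (SE 0.12) in Srrm2-KD, the latter being 0.12 with the 24 h Srrm2-KD library of experiment 3 left out.

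All 4 CLK genes had higher fitted values at 72 h under both siRNAs, with a median log2 change of 0.40 in Gl2-KD and 0.24 in Srrm2-KD. This held in Gl2-KD under all 25 settings tried, and in Srrm2-KD under 23 of 25. The exceptions left out experiment 1 or its Srrm2-KD 24 h library, and the lowest value in them was -0.10 for *Clk1*. *Clk3* had the largest fitted values of the 4. *Clk3* measured 4.93, 13.2 and 17.6 CPM in Gl2-KD and 7.77, 9.44 and 11.2 CPM in Srrm2-KD at 24 h, and 8.50, 19.98 and 28.2 CPM in Gl2-KD and 7.24, 21.4 and 27.4 CPM in Srrm2-KD at 72 h. Its log2 change was 0.68 (SE 0.24) in Gl2-KD and 0.74 (SE 0.24) in Srrm2-KD (edgeR adjusted p = 0.180 and 0.173), and in Srrm2-KD it was not higher in experiment 1. The leave-one-out ranges were 0.54 to 0.77 in Gl2-KD and 0.49 to 1.23 in Srrm2-KD, the latter highest without all of experiment 1. Its exons overlap those of *Edc3* on the opposite strand.

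The other CLK genes had smaller fitted values. *Clk1* measured 98.8, 131 and 121 CPM in Gl2-KD and 100.3, 157 and 137 CPM in Srrm2-KD at 24 h, and 189, 162 and 132 CPM in Gl2-KD and 192, 166 and 113 CPM in Srrm2-KD at 72 h. *Clk4* measured 30.8, 44.7 and 40.3 CPM in Gl2-KD and 31.5, 52.1 and 42.5 CPM in Srrm2-KD at 24 h, and 51.9, 46.0 and 46.8 CPM in Gl2-KD and 49.7, 52.5 and 45.1 CPM in Srrm2-KD at 72 h. In Gl2-KD the libraries of the 2 times overlapped for neither gene, and in Srrm2-KD they overlapped for both, with *Clk1* lower at 72 h than at 24 h in experiment 3. The log2 change of *Clk1* was 0.46 (SE 0.20) in Gl2-KD and 0.24 (SE 0.20) in Srrm2-KD, and that of *Clk4* was 0.34 (SE 0.15) and 0.24 (SE 0.15). Without experiment 1 the Gl2-KD values were 0.21 and 0.13. That of *Clk2* was 0.08 (SE 0.12) in Gl2-KD and 0.15 (SE 0.12) in Srrm2-KD.

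**Figure D3:**
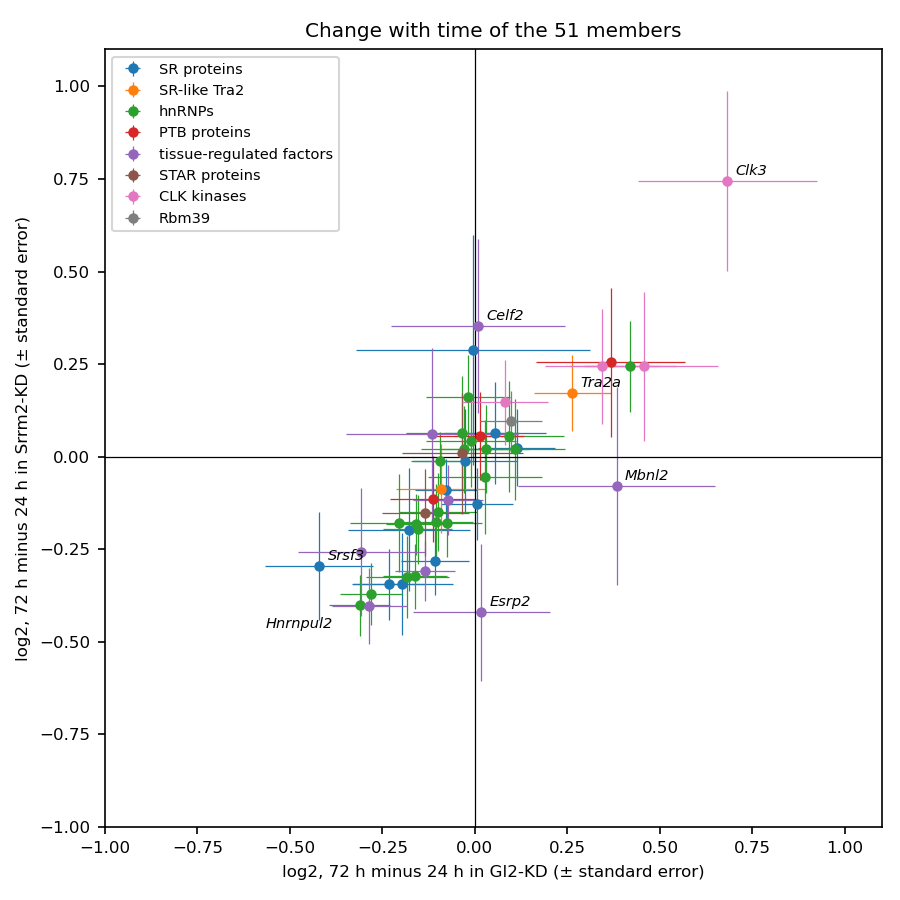
Log2 change from 24 h to 72 h in Gl2-KD (horizontal) against that in Srrm2-KD (vertical) for the 51 genes, with lines of ± 1 standard error and colours for the gene groups. *Clk3* lies farthest out at 0.68 and 0.74, and the lower left holds *Hnrnpul2*, *Srsf3* and other SR protein and hnRNP genes.

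Libraries of the 2 times did not overlap for 4 of the 51 in Gl2-KD (7.27% of genes) and for 7 in Srrm2-KD (7.48% of genes). The 7 were *Hnrnpd*, *Hnrnpa0*, *Srsf2*, *Srsf7*, *Hnrnpl* and *Srsf4*, all lower at 72 h, and *Rbm39*, higher. The share of the 51 with a lower fitted value at 72 h was 62.7% in Gl2-KD (32 genes, against 47.7% of all genes) and 56.9% in Srrm2-KD (29 genes, against 49.9%). In Gl2-KD it depended on the scaling: 36 were lower with RLE factors (50.2% of genes) and 38 with library totals alone (52.5% of genes), and 26 were lower without the 72 h library of experiment 3 (48.4% of genes). In Srrm2-KD 29 were lower with RLE factors (50.0% of genes) and 34 with library totals alone (52.8% of genes). Leaving out its 24 h library of experiment 1 gave 39 (51.4% of genes), and leaving out that of experiment 3 gave 27 (50.1% of genes). Differences between the siRNAs in these changes with time are those tested above, and none was called.

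Most of the 51 genes differed among the experiments. With the group terms in the model, edgeR called 34 of the 51 genes (66.7%) for differences among the 3 experiments, against 58.5% of all genes. The called genes were 17 of the 20 hnRNP genes, 4 of 11 SR protein genes, 2 of 2 Tra2 genes, 2 of 3 PTB genes, 7 of 8 tissue-regulated factors, 1 of 2 STAR genes and 1 of 4 CLK genes. Without experiment 1 the count was 18 (17.8% of genes called), and it was 24 both without experiment 2 (45.7% of genes) and without experiment 3 (43.6% of genes). For 14 of the 51, all 4 libraries of experiment 1 lay outside the range of the other 8, against 30.5% of genes: 11 were higher there and 3 (*Srsf9*, *Clk3* and *Tra2a*) lower. The median size of the log2 difference of experiment 1 from the mean of the others was 0.25 for the 51 and 0.52 for all genes. In these bulk libraries, fewer cells of a type and less RNA per cell cannot be told apart.

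**Figure D4:**
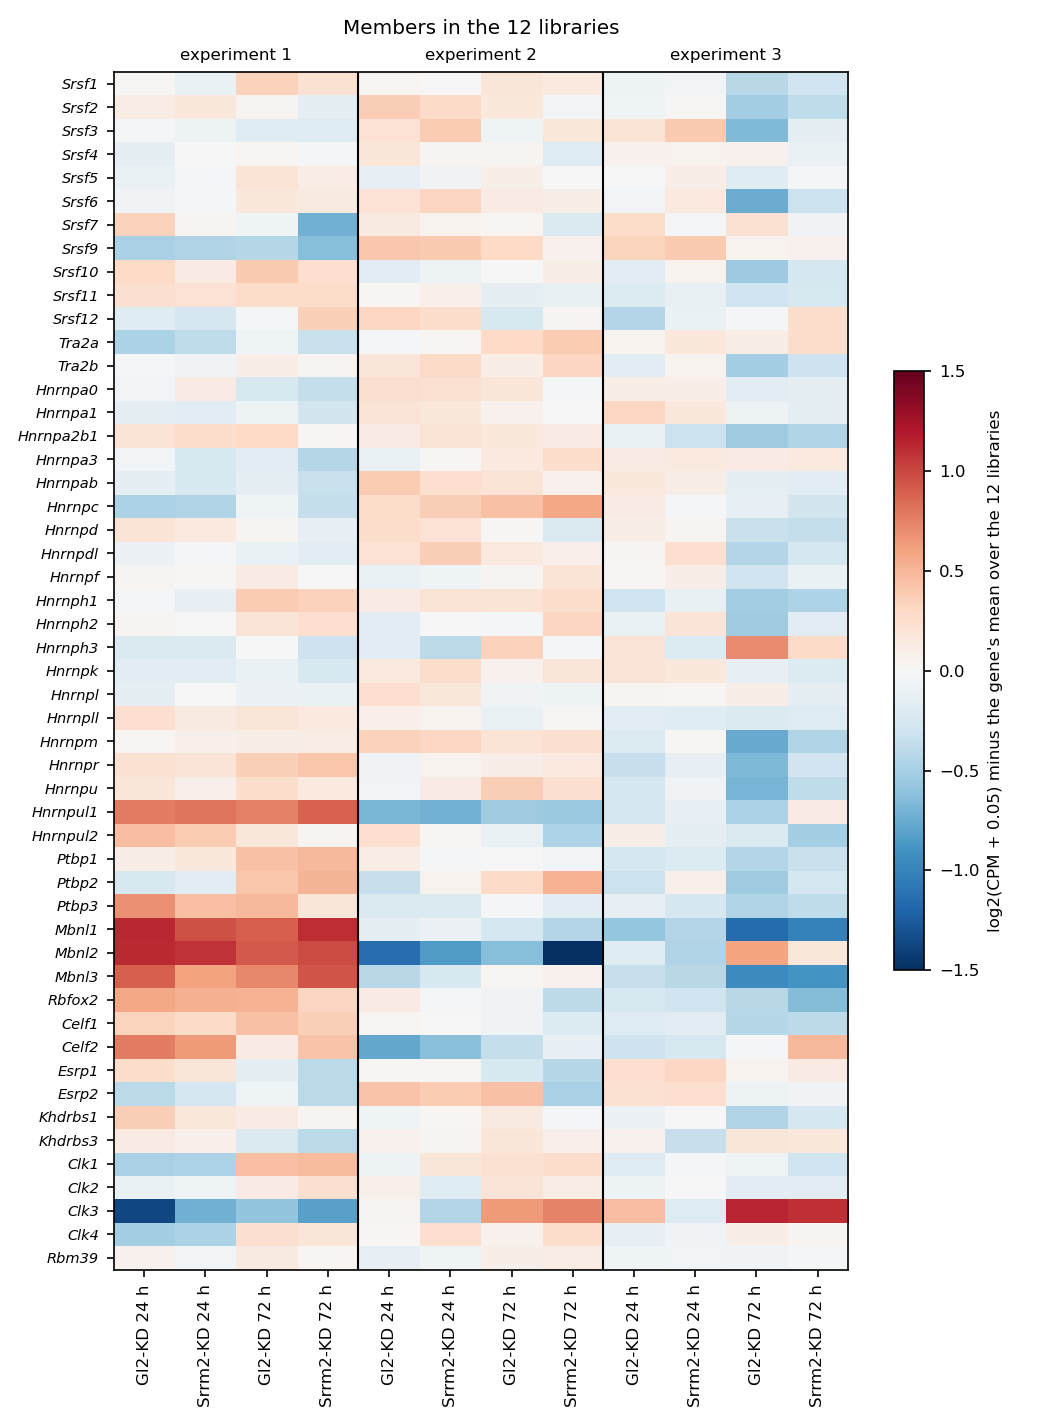
Log2(CPM + 0.05) of each of the 51 genes minus its mean over the 12 libraries (colour), with the libraries ordered by experiment. Experiment 1 is red for *Mbnl1*, *Mbnl2*, *Mbnl3* and *Hnrnpul1* and blue for *Clk3* and *Srsf9*, and the Gl2-KD 72 h library of experiment 3 is blue for 24 genes whose lowest value it holds.

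Values below are CPM in the order Gl2-KD 24 h, Srrm2-KD 24 h, Gl2-KD 72 h and Srrm2-KD 72 h. Differences of experiment 1 are log2 values against the mean of experiments 2 and 3 and are given as a description. The tissue-regulated factors had the largest median difference, 0.75. *Mbnl1* measured 14.2, 12.6, 12.1 and 14.0 CPM in experiment 1, 5.89, 6.07, 5.38 and 4.75 CPM in experiment 2 and 4.29, 4.75, 2.88 and 3.18 CPM in experiment 3. All 4 libraries of experiment 1 exceeded all others, and the difference was 1.55 (SE 0.12). *Mbnl3* measured 7.29, 5.98, 6.47 and 7.59 CPM in experiment 1, 2.91, 3.34, 3.98 and 4.10 CPM in experiment 2 and 3.06, 2.92, 1.99 and 2.07 CPM in experiment 3. Its difference was 1.19 (SE 0.17), and its experiment 3 was lowest at 72 h. *Mbnl2*, whose values are given above, differed by 1.55 (SE 0.19) in experiment 1 and by -1.11 (SE 0.24) between experiments 2 and 3. The edgeR adjusted p for differences among the experiments was 8.82e-06 for *Mbnl1*, 3.29e-04 for *Mbnl3* and 9.50e-05 for *Mbnl2*.

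*Celf1* and *Celf2* bind GU-rich elements, *Celf1* in most tissues and *Celf2* chiefly in brain, heart and muscle. *Celf1* measured 326, 316, 349.9 and 332 CPM in experiment 1, 265, 258, 248 and 225 CPM in experiment 2 and 226, 229, 192 and 197 CPM in experiment 3. *Celf2* measured 10.8, 9.88, 6.87 and 8.50 CPM in experiment 1, 3.69, 4.06, 4.90 and 5.81 CPM in experiment 2 and 5.08, 5.34, 6.26 and 8.88 CPM in experiment 3. All libraries of experiment 1 lay above the others for *Celf1*, by 0.53 (SE 0.07), while for *Celf2* experiment 1 was highest in 3 of the 4 groups. *Rbfox2* (0.73 (SE 0.06); edgeR adjusted p = 8.18e-06) also had its 4 highest values in experiment 1. *Esrp2* was not called, and *Esrp1* differed mainly between experiments 2 and 3, by -0.34 (SE 0.09).

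Among the hnRNP genes *Hnrnpul1* stood out, at 139 to 151 CPM in experiment 1, 50.0 to 56.3 CPM in experiment 2 and 58.6 to 88.9 CPM in experiment 3. It had the smallest p of the 51, with edgeR adjusted p = 3.28e-06 and a difference of 1.20 (SE 0.08). *Hnrnpul2* was higher in experiment 1 by 0.40 (SE 0.06). *Hnrnpr*, a paralog of *Syncrip* with functions in neuronal mRNA transport, and *Hnrnpll*, a regulator of *Ptprc* splicing in lymphocytes, were also higher there. *Hnrnpr* measured 185, 181, 202 and 210.1 CPM in experiment 1, 152.4, 163, 169 and 174 CPM in experiment 2 and 124, 145, 98.5 and 129 CPM in experiment 3. *Hnrnpll* measured 98.1, 90.6, 93.8 and 91.0 CPM in experiment 1, 86.8, 85.6, 77.0 and 83.4 CPM in experiment 2 and 73.1, 72.5, 70.9 and 72.3 CPM in experiment 3. In both genes the 4 libraries of experiment 1 exceeded the other 8, and the differences were 0.45 (SE 0.09) and 0.27 (SE 0.06).

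*Hnrnpa1*, *Hnrnpa2b1* and *Hnrnpa3* form the core A and B proteins of hnRNP particles. *Hnrnpa1* measured 1739, 1718, 1805 and 1579 CPM in experiment 1, 2178, 2130.4, 1997 and 1899 CPM in experiment 2 and 2377, 2124, 1811 and 1720.3 CPM in experiment 3. *Hnrnpa2b1* measured 361, 375, 384 and 317 CPM in experiment 1, 340.2, 361, 349 and 341 CPM in experiment 2 and 291, 250.5, 217 and 229 CPM in experiment 3. *Hnrnpa3* measured 864, 762, 790.2 and 662 CPM in experiment 1, 828, 902, 981 and 1069.7 CPM in experiment 2 and 970.2, 989, 966 and 984 CPM in experiment 3. The differences of experiment 1 were -0.24 (SE 0.07) for *Hnrnpa1* and -0.32 (SE 0.09) for *Hnrnpa3*, and *Hnrnpa2b1* was lowest in experiment 3 in each group. Of the 31-base stretches of these genes' transcripts, 29.3% (*Hnrnpa1*), 3.18% (*Hnrnpa2b1*) and 28.1% (*Hnrnpa3*) also occur in other annotated genes, so their counts could have been split.

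*Hnrnpc* encodes the protein that binds U tracts and keeps cryptic exons from being spliced in. *Hnrnpc* measured 69.0, 70.0, 92.0 and 74.7 CPM in experiment 1, 116, 124, 130.0 and 143 CPM in experiment 2 and 105, 94.3, 87.9 and 79.0 CPM in experiment 3. Experiment 2 held the highest values at each siRNA and time, and the difference of experiment 1 was -0.51 (SE 0.10). *Hnrnpk*, which binds C-rich RNA, and *Hnrnpab* had their lowest values in experiment 1 in at least 3 of the 4 groups. *Hnrnpk* measured 654, 658, 689 and 621 CPM in experiment 1, 814, 885, 769 and 832 CPM in experiment 2 and 841, 818, 678 and 638 CPM in experiment 3. The differences were -0.25 (SE 0.08) for *Hnrnpk* and -0.32 (SE 0.06) for *Hnrnpab*.

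*Hnrnph1*, *Hnrnpm* and *Hnrnpu* had their lowest values in the 72 h libraries of experiment 3. *Hnrnph1* measured 539, 504, 714 and 699 CPM in experiment 1, 599, 631, 633 and 659 CPM in experiment 2 and 447, 506, 382 and 399 CPM in experiment 3. *Hnrnpm* measured 498, 513, 516 and 525 CPM in experiment 1, 619, 604, 560.1 and 574 CPM in experiment 2 and 422, 494, 288 and 356 CPM in experiment 3. *Hnrnpu* measured 757, 702, 798 and 738 CPM in experiment 1, 646, 724, 856 and 788 CPM in experiment 2 and 559, 643, 411 and 512 CPM in experiment 3. *Hnrnpu* encodes SAF-A, an abundant nuclear RNA and chromatin binder. The log2 difference of experiment 2 from experiment 3 was 0.54 (SE 0.13) for *Hnrnph1*, 0.61 (SE 0.12) for *Hnrnpm* and 0.51 (SE 0.13) for *Hnrnpu*. Exons of *Hnrnpm* overlap *March2* on the same strand, and 14.0% of its 31-base stretches lie in that gene.

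The other hnRNP genes called were *Hnrnph3*, *Hnrnpa0*, *Hnrnpdl* and *Hnrnpd*, whose values are given above, with differences of -0.27 (SE 0.09), -0.19 (SE 0.07), -0.15 (SE 0.08) and 0.10 (SE 0.06) in experiment 1. *Hnrnph3* was higher in experiment 3 than in experiment 2 in each group. *Hnrnpf*, *Hnrnpl* and *Hnrnph2* were not called, with ranges over the 12 libraries of 991 to 1404, 456 to 602 and 87.9 to 158 CPM. For *Hnrnpf* and *Hnrnph2*, 38.5% and 21.9% of 31-base stretches lie in other genes too.

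Of the SR protein genes, *Srsf9* was lowest in experiment 1 in every group, with a difference of -0.75 (SE 0.07) (edgeR adjusted p = 2.96e-05). *Srsf10*, a splicing repressor when dephosphorylated, and *Srsf11* were higher. *Srsf10* measured 350.2, 310.1, 373 and 339 CPM in experiment 1, 252, 269, 286 and 301 CPM in experiment 2 and 255, 294, 196 and 238 CPM in experiment 3. *Srsf11* measured 265, 261, 271 and 272 CPM in experiment 1, 229, 237, 203 and 207 CPM in experiment 2 and 194, 208, 182 and 189.8 CPM in experiment 3. For both, each library of experiment 1 exceeded all the others, with differences of 0.40 (SE 0.10) and 0.38 (SE 0.06). *Srsf2* was the remaining called gene, with a difference of 0.42 (SE 0.08) between experiments 2 and 3. The 7 SR protein genes not called were *Srsf1*, *Srsf3*, *Srsf4*, *Srsf5*, *Srsf6*, *Srsf7* and *Srsf12*. Of these *Srsf4* and *Srsf5* were the steadiest, at 84.9 to 110.3 and 504 to 659 CPM, and *Srsf1* and *Srsf6* ranged over 459.7 to 780.0 and 271 to 568 CPM, with the lowest value in the Gl2-KD 72 h library of experiment 3.

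The Tra2 proteins, SR-like activators that bind GAA-rich enhancers, were both called. *Tra2a* measured 99.5, 107, 132 and 110.0 CPM in experiment 1, 136, 141, 171 and 181 CPM in experiment 2 and 144, 154, 148 and 166 CPM in experiment 3. *Tra2b* measured 398, 390.4, 434 and 418 CPM in experiment 1, 461, 496, 435 and 506 CPM in experiment 2 and 361, 422, 284 and 326 CPM in experiment 3. *Tra2a* was lowest in experiment 1 in each group, with a difference of -0.47 (SE 0.08), whereas *Tra2b* differed between experiments 2 and 3, by 0.45 (SE 0.10). The fitted values of *Tra2a* were also higher at 72 h, by 0.26 (SE 0.10) in Gl2-KD and 0.17 (SE 0.10) in Srrm2-KD, in all 3 experiments.

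PTB proteins bind pyrimidine tracts and repress neural and muscle exons. *Ptbp1* measured 642, 669, 812 and 834 CPM in experiment 1, 644, 591, 597 and 579 CPM in experiment 2 and 498, 517, 439.9 and 474 CPM in experiment 3. *Ptbp3* measured 139, 118, 120.5 and 97.4 CPM in experiment 1, 74.1, 74.2, 84.9 and 76.8 CPM in experiment 2 and 79.0, 72.2, 62.9 and 65.9 CPM in experiment 3. Both were higher in experiment 1, by 0.45 (SE 0.09) and 0.68 (SE 0.09), and for *Ptbp3* all 4 of its libraries lay above the rest. *Ptbp2* was not called (edgeR adjusted p = 0.135).

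*Khdrbs1* encodes SAM68, a STAR protein that links signalling to splicing. *Khdrbs1* measured 230.2, 199.7, 194 and 182 CPM in experiment 1, 170.1, 180.5, 195 and 174 CPM in experiment 2 and 168, 178, 130.2 and 149 CPM in experiment 3. Its difference in experiment 1 was 0.26 (SE 0.09), and the experiments overlapped. *Khdrbs3* (17.4 to 26.1 CPM) was not called. Among the CLK genes only *Clk3* was called, at 4.93 to 8.50 CPM in experiment 1, 9.44 to 21.4 CPM in experiment 2 and 11.2 to 28.2 CPM in experiment 3, a difference of -1.29 (SE 0.19). *Clk1*, *Clk2* and *Clk4* had ranges of 98.8 to 192, 77.5 to 104 and 30.8 to 52.5 CPM. *Rbm39*, a U2AF-like splicing factor, was the steadiest of all, at 334 to 400.0 CPM, a highest value 1.20 times the lowest.

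Other measures moved with experiment 1. Mitochondrial genes took 3.85% to 4.23% of counts in its libraries and 2.36% to 3.41% in the other 8. The summed stem cell markers were 5198 to 6232 CPM in experiment 1, 6336 to 7574 CPM in experiment 2 and 7021 to 8039 CPM in experiment 3. These markers did not move together. *Pou5f1*, *Dppa5a* and *Utf1* were lower in each library of experiment 1 than in any other library. *Klf4* was higher, at 152 to 234 CPM, against 62.4 to 114 CPM in experiment 2 and 85.7 to 93.4 CPM in experiment 3. For the remaining stem cell markers, *Nanog* and *Esrrb* among them, experiment 1 overlapped the others. The 6 neural markers, which include *Pax6* and *Nes*, summed to 141 to 152 CPM, 118 to 202 CPM and 109 to 153.02 CPM, and *Sox1*, a defining marker, did not exceed 1.62 CPM. *Sox1* (1.11 to 1.62 CPM) and *Pax6* (31.1 to 34.6 CPM) were higher in each library of experiment 1 than in any other. In the other libraries they reached at most 0.912 and 24.2 CPM. *Nes* went the other way, at no more than 23.8 CPM in experiment 1 and no less than 25.7 CPM in the other libraries. For *Tubb3*, *Map2* and *Neurod1* experiment 1 overlapped the others. Fibroblast markers summed to 168 to 238 CPM, 256 to 308 CPM and 141 to 245 CPM; *Vim* gave most of this, and 5 of the 8, among them *Col3a1*, *Postn* and *Dcn*, were below 1 CPM in every library. The part of these measures in the differences among experiments was not tested.

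**Figure D5:**
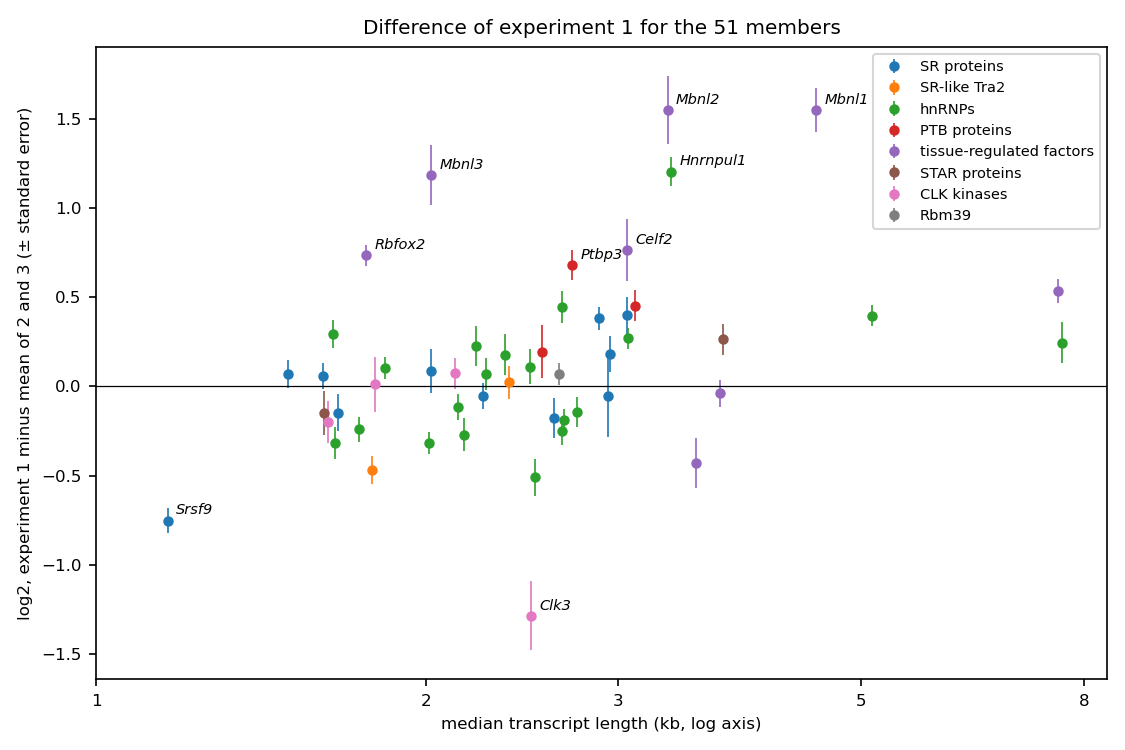
Log2 difference of experiment 1 from the mean of experiments 2 and 3 (vertical, lines ± 1 standard error) against the median transcript length of each of the 51 genes (horizontal, log axis). *Srsf9*, with the shortest transcripts, lies at -0.75 and *Mbnl1*, with a median of 4552 nucleotides, at 1.55, while *Clk3*, at 2496 nucleotides, lies at -1.29.

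The difference of experiment 1 was related to transcript length across genes. Spearman's rho was 0.46 over the 51 genes and 0.53 over the 15552 protein-coding genes tested, and with GC content it was -0.23 and -0.31. These are descriptions across genes, which share the same libraries, and a part of length or GC content in the difference was not tested. Between experiments 2 and 3, 41 of the 51 genes (80.4%) had higher fitted values in experiment 2, against 49.9% of all genes. Without the Gl2-KD 72 h library of experiment 3 the count was 38 (74.5%, against 50.2% of genes).

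A list of 71 other splicing regulators and RNA-binding proteins, chosen for function (SR protein kinases and importers, NOVA, ELAVL and PCBP proteins, U2AF and others), was set beside the 51. Of these, 70 were tested. For the siRNA comparisons edgeR called 0 of 70 at 24 h, at 72 h and in their mean. From 24 h to 72 h it called 2 in Gl2-KD (1.45% of genes) and 0 in Srrm2-KD (0.551% of genes). In Gl2-KD *Celf5* rose by a log2 change of 0.79 (SE 0.14, edgeR adjusted p = 0.0276), and *Celf4* fell, with a log2 change of -0.90 (SE 0.17, edgeR adjusted p = 0.0316). Both are brain-enriched CELF factors. For the experiments it called 47 of 70 (67.1%, against 58.5% of genes).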

How the data were processed

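PolyA+ RNA of the 12 libraries was sequenced as 100-bp pairs. The authors quantified transcripts with kallisto 0.46.1 on GENCODE M24 and deposited estimated counts per gene, not normalized; the sources used here do not say how transcripts were summed. Totals were 73933196 to 153343831 counts per library. Of 42450 identifiers, 42156 matched GENCODE M21, which gave names, lengths and sequences. The table holds 0 spike-in identifiers.

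Counts were rounded and fitted in edgeR 4.0.16 (R 4.3.3) with quasi-likelihood tests, TMM scaling, terms for the 4 groups and the experiment as a block, after a filter on low counts (minimum 10, total 15). Residual degrees of freedom were 6. P-values were adjusted by the Benjamini-Hochberg method over 19410 genes, with calls below 0.05. The study's covariate, the RNA processing day, is not in the labels, and the experiment number stood in for it. Deviations from group means correlated at 0.28 to 0.75 in the 18 pairs of libraries sharing an experiment number and at -0.63 to 0.23 in the 36 other pairs, so the numbers pair the samples. CPM used TMM library sizes. DESeq2 1.42.0, limma 3.58.1, other scalings and filters, other blocks and leaving out libraries were alternatives.

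The 51 genes and all lists were chosen with earlier results of these data known. Values in every library are given for the 6 genes with the smallest p in each comparison and for every called gene.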

Additional observations from a re-analysis of the deposited data

How the results depend on the processing

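With edgeR 0 of the 51 genes were called in every siRNA and time comparison, and the alternatives changed this as follows. At 72 h the replicate block for each pair of libraries gave 2 (*Hnrnph3* and *Srsf7*), against 3.73% of genes called. For the mean of both times DESeq2 gave 1 (*Hnrnpul2*), against 3.78% of genes, and the pair block gave 4, against 5.79% of genes. For time in Gl2-KD DESeq2 gave 3 (6.69% of genes), and in Srrm2-KD it gave 7 (5.43% of genes). In Srrm2-KD limma-voom, the newer edgeR dispersion method and a minimum of 10 counts in every library gave 1 each. They called 1.33%, 1.44% and 1.18% of genes, respectively. Without the replicate block 0 were called in these 6 comparisons. Leaving out libraries or an experiment gave 0 to 1 for the mean of both times and for time under each siRNA. For the experiments it gave 18 to 37 (17.8% to 55.9% of genes), where the main count was 34 (58.5% of genes). Without experiment 1 that count was 18, without experiment 2 or 3 it was 24. *Hnrnph3* was the call for the mean, made when the 24 h Srrm2-KD library of experiment 1 was left out (1.45% of genes called). *Clk3* was the call for time, in Gl2-KD when that library or all of experiment 1 was left out and in Srrm2-KD when all of experiment 1 was. The shares of genes called were 1.94% and 1.98% in Gl2-KD and 0.711% in Srrm2-KD. No value changed sign with a call.

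Counts over all genes moved more. DESeq2 and limma-voom called 24 and 2 genes at 24 h (edgeR 0), 535 and 4 at 72 h (edgeR 0), 733 and 92 for the mean (edgeR 13), 1298 and 482 for time in Gl2-KD (edgeR 282) and 1053 and 259 in Srrm2-KD (edgeR 107). The pair block called 724 genes at 72 h and 1124 for the mean. The causes were not tested. With 3 libraries a group, 42 of the 51 intervals at 24 h and 40 at 72 h stayed within 0.5 log2 units of 0.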
